A study of Rattus norvegicus with 16 samples.

Results

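In these rat livers the MCD diet moved a few inflammatory genes in opposite directions, while Ccl2, Cxcl1, Icam1 and Nfkbia did not pass the test. The message of Cxcl12, a chemokine made in resting liver, fell from a mean of 421 to 128 CPM (counts scaled to a common library size) in wild-type animals, while that of Cxcl16, a chemokine that is also a membrane-bound scavenger receptor, rose from 5.28 to 23.6 CPM. Vcam1, an adhesion molecule for monocytes and lymphocytes, rose and Il1b, the secreted cytokine interleukin-1 beta, fell in wild-type livers, both by smaller steps. In wild type, Vcam1 and Il1b no longer passed in 9 and 7 of 19 alternative runs. Of all genes tested, 34.1% passed in that comparison. No member passed the test between Tspo knockout and wild type on either diet.

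The genes described here are chemokines (Ccl2, Cxcl1, Cxcl12, Cxcl16), cytokines (Il1b, Tnf), feedback inhibitors of the transcription factor NF-kB (Nfkbia, Tnfaip3) and endothelial adhesion molecules (Icam1, Vcam1). They were taken by symbol: 9 of the 10 symbols have a row among the 17168 genes of the count and normalized tables, and Tnfaip3 was not analysed here. The rows were read in 16 bulk RNA-seq libraries of whole liver from Sprague Dawley rats, 4 in each of 4 groups: wild type on chow, Tspo knockout on chow, wild type on MCD and Tspo knockout on MCD. Tspo codes for TSPO, a cholesterol- and drug-binding protein found in the outer membrane of mitochondria. All animals ate normally until 12 weeks of age, received chow or MCD for the next 8 weeks and were 20 weeks old at sampling. The labels do not spell out MCD, which in liver research is the usual name of a diet lacking methionine and choline that produces fatty liver with inflammation. They do not say how the Tspo allele was made, give the animals' sex, or state that each library came from its own animal, so the p-values rest on the spread from library to library, which may be technical.

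Chemokines are small secreted proteins that bind G-protein-coupled receptors on leukocytes and direct their migration. Ccl2 attracts monocytes, Cxcl1 attracts neutrophils, Cxcl12 acts through Cxcr4 and Cxcl16 through Cxcr6. Icam1 and Vcam1 on endothelium hold leukocytes that carry the integrins Itgal or Itgam with Itgb2, or Itga4 with Itgb1. Interleukin-1 and tumour necrosis factor, the product of Tnf, activate NF-kB, which enters the nucleus when the inhibitor encoded by Nfkbia is degraded. NF-kB in turn raises transcription of Nfkbia, Tnfaip3, Icam1, Vcam1 and several chemokines, so these genes are widely read as its targets.

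Because the members are grouped as NF-kB targets, the upstream sequences of the measured members were searched for the NF-kB consensus. Promoters were taken from RefSeq on assembly GRCr8, which is a later assembly than the rn6 build named for the deposited tables. Of the 9 measured members, 8 had an entry, and Ccl2 had none. The 250 bases before the gene start were read on both strands, with overlapping matches merged. Matches were present in Cxcl1, Nfkbia and Vcam1. The same search found a match in 2117 of 33469 promoters of that length, 6.33%. The 3 stretches are printed 5′ to 3′ on the gene's own strand, which is the minus strand for each, with the match in capitals and 20 bases on each side.
Cxcl1, chr14:17479375-17479425: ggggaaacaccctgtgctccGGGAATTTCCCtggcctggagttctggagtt
Nfkbia, chr6:78597074-78597123: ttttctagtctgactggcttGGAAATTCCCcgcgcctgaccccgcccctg
Vcam1, chr2:206742847-206742896: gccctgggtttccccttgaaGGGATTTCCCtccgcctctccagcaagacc
The match begins 84 bases before the annotated start of Cxcl1, 31 bases before that of Nfkbia and 93 bases before that of Vcam1, in upstream sequence outside the transcript. The letters TATAAA were present in the windows of Il1b, Tnf, Icam1 and Vcam1 and in 12.9% of all promoters. A match describes the letters of these windows and is not evidence of binding, and the windows of the other members say nothing about the factor.

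Total counts per library ran from 8745756 to 15762650. Tspo itself, read as a check of the labels, lay between 3.61 and 5.23 CPM on chow and between 7.63 and 9.34 CPM on MCD in wild type, and between 0.656 and 1.66 CPM in 6 of the 8 knockout libraries. The libraries labelled knockout chow 4 and knockout MCD 1 had 4.42 and 4.17 CPM, inside the wild-type chow range, the second still below the wild-type MCD range. An index of long against short messages was also low in these libraries, at -1.75 and -0.88, and in wild-type chow 4, at -0.77. This index was the mean log2 CPM of 14 long minus 23 short messages, less its mean over the wild-type chow libraries. It lay between -0.16 and 0.35 in the other chow libraries and between 1.22 and 1.91 in the other MCD libraries, so it moved with the diet. In a fit with the index as a covariate, the index and the diet therefore cannot be fully told apart. These 3 libraries are drawn open in the plot of values by library, and results are given without them where that matters.

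**Figure D1:**
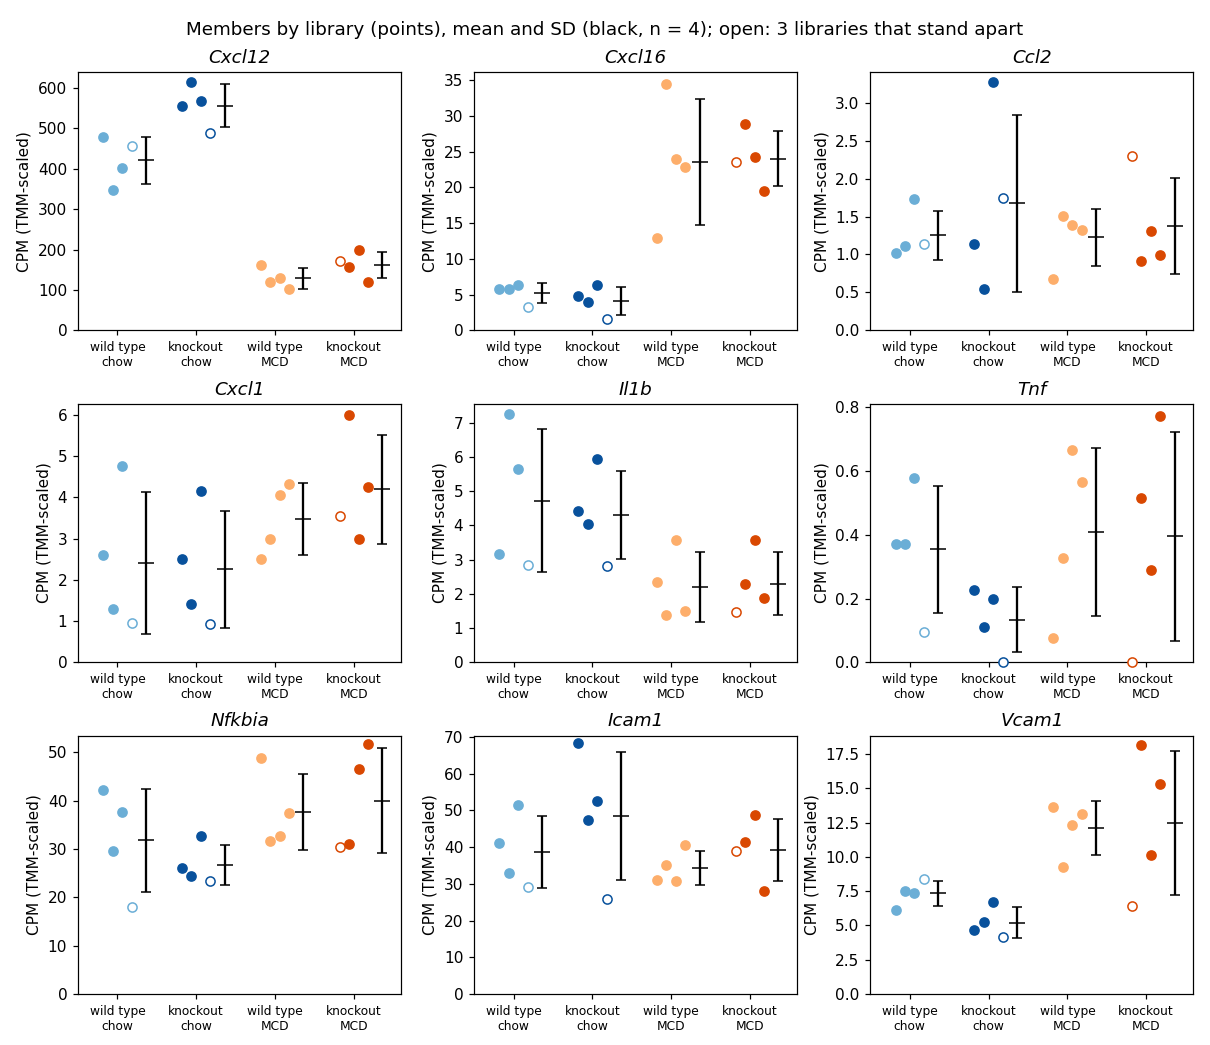
CPM (linear axis from 0) of the 9 measured members in each of the 16 libraries, by group; points are libraries, black bars the mean and SD of 4 libraries, and open points the 3 libraries that stand apart. Cxcl12 separates the diets with no overlap and falls on MCD, and Cxcl16 separates them in the other direction, while the groups of Ccl2, Nfkbia and Icam1 overlap.

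The values are counts scaled to the library total and the trimmed-mean (TMM) factor. The test was edgeR's quasi-likelihood F test over 11162 genes with Benjamini-Hochberg adjustment, a gene was called below an adjusted p of 0.05, and folds are log2 values with their standard error. In wild type, MCD against chow, 2 of the 8 members tested rose and 2 fell, where 34.1% of all genes tested were called, 18.2% higher and 15.9% lower. In the knockout 2 rose and 1 fell, where 40.4% were called, 21.9% higher and 18.5% lower. The median log2 fold over the 8 members was 0.12 in wild type and 0.14 in the knockout, beside medians of -0.0022 and 0.041 over all genes tested. Against that background these counts are no result about the members as a group, and their directions were mixed. The libraries of the 2 diets did not overlap for 3 members in wild type and 2 in the knockout, where 38.0% and 31.6% of all genes tested showed such a separation. Leaving out the 3 libraries that stand apart gave 4 calls in each genotype. In that fit 5664 of 11220 genes tested were called in wild type and 5790 in the knockout, so this is no gain for the members.

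Cxcl12 binds Cxcr4 and the scavenging receptor Ackr3 and is known for retaining progenitor cells and lymphocytes in tissue niches. The 4 wild-type chow libraries had 478.5, 347.2, 402.8 and 455.5 CPM, and the 4 knockout chow libraries 555.0, 614.1, 568.5 and 487.5 CPM. On MCD the wild-type libraries had 162.6, 119.6, 129.6 and 101.8 CPM and the knockout libraries 171.4, 156.3, 199.7 and 120.6 CPM. Each MCD library lay below each chow library, in both genotypes. The log2 fold was -1.71 ± 0.19 in wild type (edgeR adjusted p = 1.5e-05) and -1.78 ± 0.19 in the knockout (adjusted p = 9e-06). The call held under every alternative run, with log2 folds from -1.85 to -1.197 in wild type and from -1.90 to -1.07 in the knockout. In whole liver, fewer cells that carry a message and less of it per cell cannot be told apart.

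Of the receptors, Cxcr4 rose from 2.07 ± 0.33 to 4.49 ± 1.49 CPM (SD, n = 4) in wild type, a log2 fold of 1.13 ± 0.35 (edgeR adjusted p = 0.0206), and from 1.21 ± 0.59 to 3.50 ± 1.22 CPM in the knockout, a log2 fold of 1.51 ± 0.37 (adjusted p = 0.00496). The wild-type call was lost without wild-type chow 1, wild-type chow 2 or wild-type MCD 2, and with the long-against-short index as a covariate. Ackr3, listed under its older symbol Cxcr7, had log2 folds of -0.70 ± 0.33 and -0.80 ± 0.34, neither past the threshold (edgeR adjusted p = 0.106 and 0.0709).

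Cxcl16 exists as a membrane protein on macrophages, endothelium and hepatocytes and is shed as a chemokine for T and NKT cells that bear Cxcr6. Chow libraries had 5.75, 5.76, 6.36 and 3.24 CPM in wild type and 4.77, 3.94, 6.34 and 1.61 CPM in the knockout. MCD libraries had 12.9, 34.5, 24.0 and 22.9 CPM in wild type and 23.6, 28.9, 24.2 and 19.4 CPM in the knockout. The diets did not overlap in either genotype. The lowest chow values were those of wild-type chow 4 and knockout chow 4, whereas knockout MCD 1 lay inside its group. The log2 fold was 2.17 ± 0.34 in wild type (edgeR adjusted p = 0.000217) and 2.51 ± 0.34 in the knockout (adjusted p = 6.5e-05), the largest among the members in each genotype. The call held under every alternative run, from 1.84 to 2.69 in wild type and from 2.23 to 3.19 in the knockout. Its receptor Cxcr6 had at most 9 counts in any library and was not tested.

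Ccl2, the monocyte chemoattractant often followed in fatty liver, was low in every group. Its counts ran from 5 to 33 per library, and its mean was 1.25 ± 0.32 CPM in wild-type chow, 1.67 ± 1.17 in knockout chow, 1.22 ± 0.37 in wild-type MCD and 1.38 ± 0.63 in knockout MCD (SD, n = 4). The 4 groups overlapped. The log2 fold for diet was 0.00 in wild type, with a 95% interval from -0.89 to 0.90. In the knockout it was -0.30, from -1.25 to 0.65, so changes within those bounds were not excluded.

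Cxcl1, a neutrophil chemokine that shares sequence with Cxcl2 and Cxcl3, had counts from 7 to 105. Its mean was 2.40 ± 1.73 CPM in wild-type chow and 3.48 ± 0.87 in wild-type MCD, and 2.25 ± 1.43 in knockout chow and 4.20 ± 1.32 in knockout MCD (SD, n = 4). In each chow group the library numbered 3 stood highest, at 4.77 and 4.16 CPM, and the diets overlapped. The log2 folds of 0.59 ± 0.46 and 0.88 ± 0.46 did not pass (edgeR adjusted p = 0.34 and 0.137), though the knockout fold became 1.36 and passed without knockout chow 3 (adjusted p = 0.0387), and was 1.554 with library totals and no TMM factor (adjusted p = 0.00864). Cxcl2 had 22 counts and Cxcl3 had 2 counts over all 16 libraries, so the related neutrophil chemokines could not be judged.

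Il1b, made as a precursor by macrophages and cleaved by the inflammasome, fell on MCD in wild type. Wild-type chow libraries had 3.15, 7.25, 5.63 and 2.85 CPM and wild-type MCD libraries 2.35, 1.37, 3.58 and 1.51 CPM. Knockout chow libraries had 4.43, 4.05, 5.94 and 2.81 CPM and knockout MCD libraries 1.46, 2.29, 3.57 and 1.88 CPM. In both genotypes 1 MCD library, the one numbered 3, overlapped the chow range. The log2 fold was -1.10 ± 0.38 in wild type (edgeR adjusted p = 0.0364), and the knockout value of -0.92 ± 0.38 did not pass (adjusted p = 0.0667). The wild-type call was lost without wild-type chow 2, where the fold was -0.80 (adjusted p = 0.141), or without wild-type chow 3 or wild-type MCD 1, 2 or 4, and with the wild-type groups fitted alone (adjusted p = 0.051). With library totals and no TMM factor it was -0.57 (adjusted p = 0.244). The knockout fold passed under 5 alternatives: DESeq2 (-0.96, adjusted p = 0.0386), a replicate block (-0.92, adjusted p = 0.0283), the index as a covariate (-1.34, adjusted p = 0.0481), and leaving out knockout chow 4 (-1.07, adjusted p = 0.0483) or knockout MCD 3 (-1.198, adjusted p = 0.0351).

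Of the other interleukin-1 genes, Il1a, the cell-bound form of the cytokine, had a log2 fold of -0.87 ± 0.33 in wild type (edgeR adjusted p = 0.0495), a call kept under 9 of 20 alternatives. The signalling receptor Il1r1 rose, from 22.4 ± 3.96 to 41.9 ± 3.43 CPM in wild type and from 13.6 ± 2.62 to 38.1 ± 19.0 CPM in the knockout (SD, n = 4). Its log2 folds were 0.90 ± 0.26 and 1.49 ± 0.27 (edgeR adjusted p = 0.0151 and 0.000593), the first not called with the index as a covariate. Its partner chain Il1rap fell, by 1.37 ± 0.26 and 1.04 ± 0.26 on the log2 scale (edgeR adjusted p = 0.00113 and 0.00542), the second not called with library totals or the index. The receptor antagonist Il1rn had group means from 28.5 to 31.0 CPM, with log2 folds of 0.11 ± 0.24 and 0.02 ± 0.24.

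Tnf was too low to judge. Its counts were 4, 4, 4 and 1 in wild-type chow, 2, 1, 2 and 0 in knockout chow, 1, 5, 11 and 12 in wild-type MCD and 0, 9, 4 and 14 in knockout MCD, and the low-count filter removed it. The 2 libraries at 0 allow up to 0.402 CPM (knockout chow 4) and 0.209 CPM (knockout MCD 1), taking 3 counts as the limit and covering counting error only. Its main receptor Tnfrsf1a did not pass in either genotype, with log2 folds of 0.13 ± 0.19 and -0.29 ± 0.19. The second receptor Tnfrsf1b had 0.69 ± 0.26 in wild type (edgeR adjusted p = 0.0509) and rose by 1.00 ± 0.26 in the knockout (adjusted p = 0.00766), a call lost with the index as a covariate.

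Nfkbia encodes the inhibitor IkB-alpha, which captures NF-kB in the cytoplasm and is rapidly resynthesised after its activation. Chow libraries had 42.1, 29.5, 37.7 and 17.9 CPM in wild type and 26.1, 24.4, 32.7 and 23.4 CPM in the knockout. MCD libraries had 48.8, 31.7, 32.7 and 37.5 CPM in wild type and 30.5, 31.1, 46.6 and 51.7 CPM in the knockout. The groups overlapped in both genotypes. The log2 fold was 0.24 ± 0.25 in wild type (edgeR adjusted p = 0.462) and 0.58 ± 0.25 in the knockout (adjusted p = 0.0712). The knockout value passed without the 3 libraries that stand apart, at 0.64 (adjusted p = 0.0198), without knockout MCD 1, at 0.69 (adjusted p = 0.0379), and with upper-quartile factors, at 0.69 (adjusted p = 0.047). Library totals without a TMM factor gave 0.75 in wild type (adjusted p = 0.0424) and 1.32 in the knockout (adjusted p = 0.00115), but that scaling moved the median gene by 0.53 and 0.77.

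Of 20 further subunits, kinases and inhibitors tested, 5 rose in wild type and 8 in the knockout and none fell in either, with medians of 0.32 and 0.37. Of all genes tested, 18.2% rose and 15.9% fell in wild type, and 21.9% and 18.5% in the knockout. Without the 3 libraries that stand apart, 9 of the list rose and 1 fell in each genotype, and with library totals 15 and 16 rose and none fell. Of 11220 genes tested without those libraries, 2891 rose and 2773 fell in wild type, and 3125 and 2665 in the knockout. With library totals, 4806 of 11162 rose and 508 fell in wild type, and 6447 and 405 in the knockout. With the index as a covariate, 5 of the list rose and 1 fell in wild type and 4 rose in the knockout. The precursor subunits Nfkb1 and Nfkb2 had log2 folds of 0.93 ± 0.19 and 0.87 ± 0.23 in wild type and 1.03 ± 0.19 and 0.97 ± 0.23 in the knockout. The calls for Nfkb1 held under every alternative run, and those for Nfkb2 were lost with the index as a covariate (0.44 and 0.58). Rela, the main transactivating subunit, did not pass, with log2 folds of 0.11 ± 0.18 and -0.09 ± 0.18. Traf3, a brake on the non-canonical branch, had the smallest p in this list in both genotypes and rose from 15.77 ± 1.35 to 31.6 ± 3.84 CPM in wild type and from 12.8 ± 1.31 to 32.2 ± 6.84 CPM in the knockout (SD, n = 4). Tnip1, a partner of the Tnfaip3 protein in damping the signal, rose by 0.91 ± 0.16 and 0.97 ± 0.16 on the log2 scale.

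Among 24 other genes widely listed as NF-kB targets, 4 rose and 2 fell in wild type and 7 rose and 3 fell in the knockout, with medians of 0.35 and 0.52. Of all genes tested, 18.2% rose and 15.9% fell in wild type, and 21.9% and 18.5% in the knockout. Without the 3 libraries that stand apart, 6 of these targets rose and 4 fell in wild type, and 9 rose and 4 fell in the knockout. With library totals 12 and 15 rose and none fell, so the falls depend on the scaling. Mmp9, a matrix-degrading protease, had log2 folds of 2.14 ± 0.51 and 3.20 ± 0.59, and Plau, the urokinase plasminogen activator, 1.71 ± 0.41 and 1.86 ± 0.42. The knockout fold of Mmp9 is against a low chow mean of 0.33 ± 0.39 CPM (SD, n = 4). The wild-type calls of Mmp9 and Plau were lost with the index as a covariate. The immediate-early gene Ier3 fell, by 1.13 ± 0.27 in wild type and 0.86 ± 0.27 in the knockout on the log2 scale, calls that library totals did not keep, nor in the knockout the index, or leaving out knockout MCD 2 or 4. Birc2, an inhibitor of apoptosis, fell by 0.63 ± 0.20 in wild type and 0.57 ± 0.20 in the knockout, calls kept under 15 and 10 of 20 alternatives, and in the knockout it had the opposite sign with library totals (0.13). Psmb9, an immunoproteasome subunit, fell in the knockout by 0.97 ± 0.19, a call that library totals did not keep.

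Icam1, the endothelial and hepatocyte ligand of beta-2 integrins, did not pass in either genotype. Its means were 38.6 ± 9.86 CPM in wild-type chow, 48.5 ± 17.5 in knockout chow, 34.4 ± 4.53 in wild-type MCD and 39.2 ± 8.48 in knockout MCD (SD, n = 4). All 4 groups overlapped, and the highest library, at 68.3 CPM, and the lowest, at 26.0 CPM, were both in knockout chow. The log2 folds were -0.17 ± 0.25, with a 95% interval from -0.70 to 0.37, and -0.31 ± 0.25, from -0.84 to 0.23. Both changed sign with library totals and no TMM factor, to 0.37 and 0.39.

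Vcam1, the cytokine-inducible ligand of Itga4 with Itgb1, rose in both genotypes. Chow libraries had 6.12, 7.53, 7.37 and 8.37 CPM in wild type and 4.66, 5.25, 6.73 and 4.15 CPM in the knockout. MCD libraries had 13.6, 9.27, 12.3 and 13.1 CPM in wild type and 6.40, 18.1, 10.1 and 15.3 CPM in the knockout. The wild-type diets did not overlap, while knockout MCD 1 lay inside the knockout chow range. The log2 fold was 0.72 ± 0.26 in wild type (edgeR adjusted p = 0.0457) and 1.26 ± 0.27 in the knockout (adjusted p = 0.00202). The wild-type call is close to the threshold: it was lost without a filter (adjusted p = 0.0508), with a replicate block (adjusted p = 0.0505) and without wild-type chow 1, 2 or 3 or wild-type MCD 1, 3 or 4. With the index as a covariate the folds were 0.19 (edgeR adjusted p = 0.633) and 0.70 (adjusted p = 0.0774), neither past the threshold. Since the index moved with the diet, that fit cannot fully tell the index and the diet apart.

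**Figure D2:**
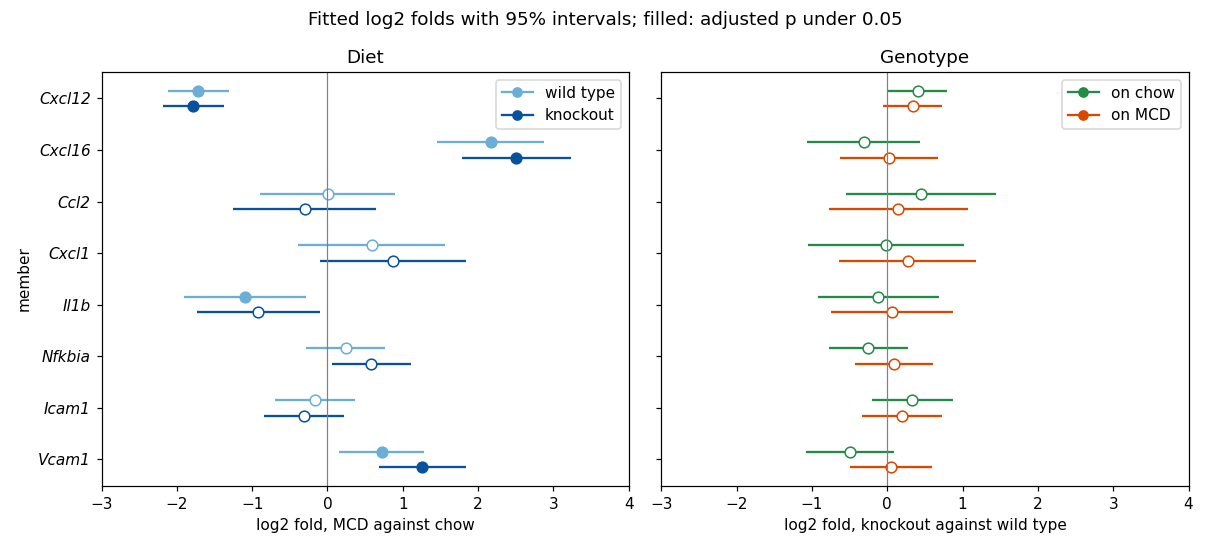
Fitted log2 folds (x axis) of the 8 members tested, with 95% intervals, for MCD against chow in each genotype (left) and knockout against wild type on each diet (right); filled points have an adjusted p under 0.05. Filled points appear for Cxcl12, Cxcl16, Vcam1 and, in wild type, Il1b on the left, and none on the right.

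The integrin chains Itga4, Itgb1, Itgal, Itgam and Itgb2, named above as partners of these adhesion molecules, were called in both genotypes. Itgb7, another chain of the list, was not called in the knockout (log2 fold -0.23 ± 0.40, edgeR adjusted p = 0.668). Itga4 rose from 1.58 ± 0.91 to 7.06 ± 1.68 CPM in wild type and from 1.73 ± 0.77 to 7.64 ± 1.85 CPM in the knockout (SD, n = 4), with log2 folds of 2.14 ± 0.39 and 2.12 ± 0.39. Itgb1 had log2 folds of 1.14 ± 0.20 and 1.13 ± 0.20. The calls for both held under every alternative run. The leukocyte integrin chain Itgal rose by 1.90 ± 0.40 and 1.69 ± 0.40, Itgam by 2.11 ± 0.56 and 2.36 ± 0.57, and their shared beta chain Itgb2 by 0.88 ± 0.31 and 1.197 ± 0.313 on the log2 scale. With the index as a covariate, the call for Itgal was lost in the knockout and those for Itgam and Itgb2 in both genotypes. The wild-type Itgb2 call was also lost without wild-type chow 3 or 4 or wild-type MCD 1, 2 or 4. Over the list of other adhesion molecules and integrins, 7 of 19 tested rose in each genotype, and 3 fell in wild type and 2 in the knockout. Of all genes tested, 18.2% rose and 15.9% fell in wild type, and 21.9% and 18.5% in the knockout. With the index as a covariate 4 of the list rose and 3 fell in wild type and 3 rose and 3 fell in the knockout. With library totals 10 and 14 of the list rose and 2 fell in each. Selp, an endothelial selectin stored for rapid release, and Icam5, an Icam1 relative known from neurons, fell in both genotypes, by 1.44 ± 0.22 and 1.29 ± 0.22 for Selp and by 3.13 ± 0.42 and 2.72 ± 0.45 for Icam5 on the log2 scale. Icam5 was low, with a mean of 1.82 ± 0.56 CPM in knockout chow and 0.27 ± 0.10 in knockout MCD (SD, n = 4).

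**Figure D3:**
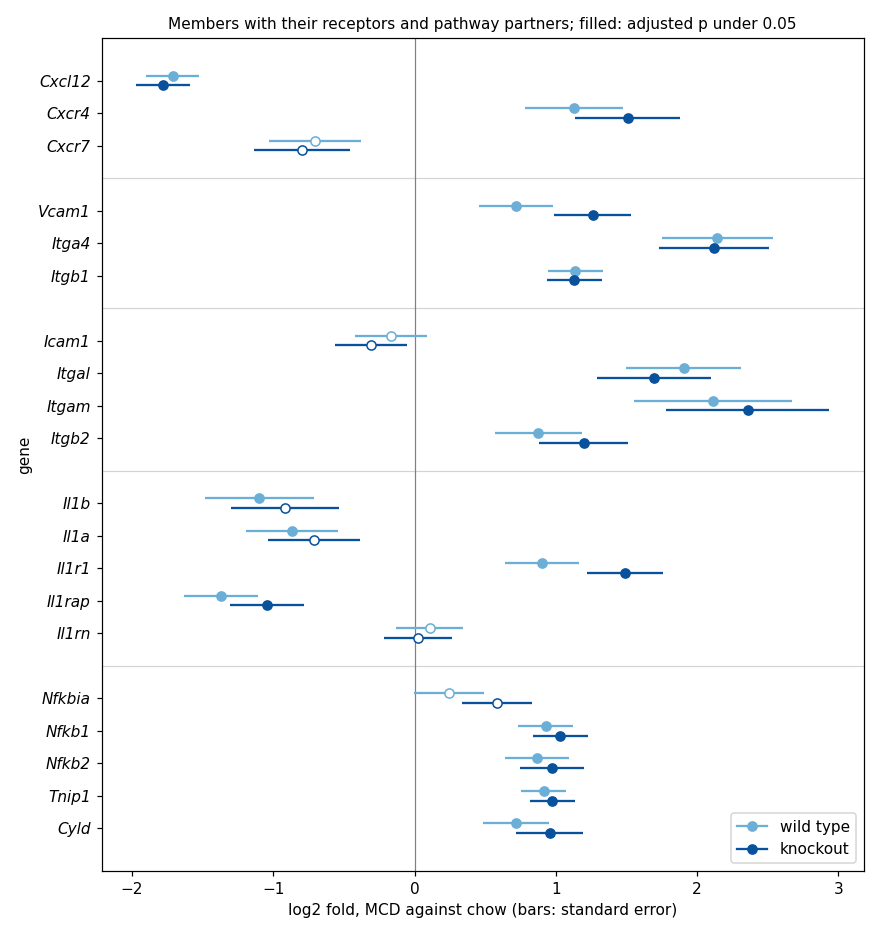
Log2 folds, MCD against chow (x axis, bars are standard errors), of members and of their receptors or pathway partners in wild type (light) and knockout (dark); filled points have an adjusted p under 0.05. Cxcl12 lies left of 0 and its receptor Cxcr4 right of it, and the integrin chains drawn with Vcam1 and Icam1 lie right of 0.

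Of 30 further ligands, 16 were tested, of which 1 rose and 7 fell in wild type and 1 rose and 5 fell in the knockout, with medians of -1.01 and -0.59. Of all genes tested, 18.2% rose and 15.9% fell in wild type, and 21.9% and 18.5% in the knockout. Without the 3 libraries that stand apart, 1 ligand rose and 10 fell in wild type and 1 rose and 5 fell in the knockout. With library totals and no TMM factor, 2 rose and 2 fell in wild type and 4 rose and 2 fell in the knockout, so the balance depends on the scaling. Cxcl14, an epithelial chemokine, fell from 11.2 ± 3.06 to 3.47 ± 0.54 CPM in wild type and from 14.9 ± 6.61 to 4.18 ± 0.48 CPM in the knockout (SD, n = 4), calls that held under every alternative run. Cxcl11, a ligand of Cxcr3, fell by 1.56 ± 0.31 and 1.36 ± 0.31, and Ccl24, a ligand of Ccr3, by 1.12 ± 0.29 and 1.56 ± 0.29 on the log2 scale. The Cxcl11 call in the knockout and the Ccl24 call in wild type were lost with library totals, the second also with the index. Among the called ligands the exception was Ccl21, the lymphatic chemokine that recruits Ccr7-bearing cells. Its log2 folds were 1.46 ± 0.43 and 1.21 ± 0.45. The calls were kept under 17 and 11 of 20 alternatives, the second lost without the 3 libraries that stand apart.

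Of the chemokine receptors, 9 of 19 were tested, and 3 rose and none fell in each genotype. They were Ccr1 (log2 folds of 1.68 ± 0.42 and 2.28 ± 0.43), Cx3cr1 (2.12 ± 0.57 and 1.87 ± 0.59) and Cxcr4. These receptors are carried by monocytes, macrophages and lymphocytes. The Cx3cr1 calls were lost with the index as a covariate, and that in the knockout also without knockout MCD 2. With the index, 1 receptor rose and 2 fell in wild type and 2 rose and 2 fell in the knockout, and with library totals 4 and 6 rose. In the list of 26 interleukin-1, TNF and Toll-like receptor genes tested, 5 rose and 4 fell in wild type and 7 rose and 4 fell in the knockout, while with library totals 15 rose and 1 fell and 17 rose and none fell. Beside both lists, 18.2% of all genes tested rose and 15.9% fell in wild type, and 21.9% and 18.5% in the knockout. Lbp, the acute-phase carrier of bacterial lipopolysaccharide, rose from 88.4 ± 16.8 to 277.1 ± 67.0 CPM and from 62.1 ± 23.2 to 275.8 ± 87.4 CPM (SD, n = 4). Irak1, a kinase of the receptor complex, rose by 0.61 ± 0.18 in both genotypes, a call lost in wild type with the index as a covariate. Il18bp, which neutralises interleukin-18, fell by 0.86 ± 0.15 in wild type and 0.67 ± 0.15 in the knockout on the log2 scale, and in the knockout it had the opposite sign with library totals (0.04).

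**Figure D4:**
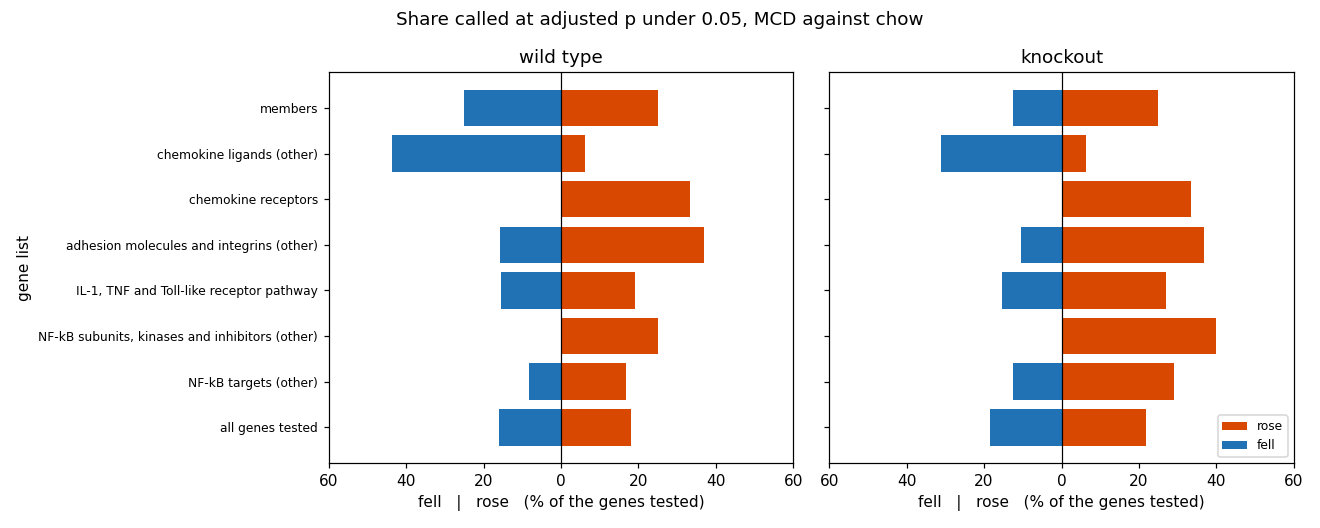
Share of the genes tested (percent, x axis) that rose (right of 0) or fell (left of 0) on MCD at an adjusted p under 0.05, for the members, 6 lists of related genes and all 11162 genes tested. The other chemokine ligands have more genes on the left, and the receptors and the NF-kB subunits, kinases and inhibitors have none there.

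Markers of liver cell types moved with the diet beside these genes. Of all genes tested, 34.1% were called in wild type and 40.4% in the knockout. The summed level of 12 macrophage and Kupffer cell markers ran from 592.1 to 858.9 CPM in wild-type chow, 699.8 to 1044 in knockout chow, 387.7 to 609.7 in wild-type MCD and 470.6 to 748.6 in knockout MCD. Within that list Csf1r, the receptor for macrophage growth factor, rose by 0.98 ± 0.29 and 0.83 ± 0.29, whereas the Kupffer cell lectin Clec4f had log2 folds of -1.51 ± 0.37 and -1.68 ± 0.38 and the scavenger receptor Marco -1.64 ± 0.58 and -2.81 ± 0.61. In the knockout Csf1r was the only marker of the list called higher. Aif1 and C1qa were also called lower there, with log2 folds of -0.53 ± 0.17 and -0.63 ± 0.22 (edgeR adjusted p = 0.0213 and 0.0345). The Csf1r calls held under 17 and 13 of 20 alternatives and not with the index as a covariate. The wild-type call of Clec4f was lost with the index and that of Marco held under 12 of 20 alternatives. Of 9 endothelial markers 2 rose and 2 fell in wild type and 4 rose in the knockout, with sums from 188.1 to 228.3 CPM in wild-type chow, 147.6 to 208.7 in knockout chow, 168.6 to 245.7 in wild-type MCD and 163.6 to 298.7 in knockout MCD. On the TMM scale the sum of 8 hepatocyte markers was lower on MCD in every library, at 98920 to 138300 CPM against 170600 to 241300 CPM on chow. Alb and Tf carry most of this sum, with 19418883 and 5572618 counts over the 16 libraries, against 1806882 for Ttr and 1797319 for Serpina1. The TMM factors, by which values are divided, ran from 0.64 to 1.00 on chow and 1.14 to 1.35 on MCD. The separation was not read with library totals. Ttr, the carrier transthyretin, fell by 1.96 ± 0.26 and 2.03 ± 0.26 and Serpina1, the protease inhibitor alpha-1-antitrypsin, by 1.13 ± 0.18 and 1.11 ± 0.18, the last lost with library totals. The endothelial genes Vwf and Cdh5 rose, by 1.66 ± 0.34 and 1.42 ± 0.37 in wild type and 1.61 ± 0.34 and 1.76 ± 0.38 in the knockout, while Lyve1 and Egfl7 fell in wild type by 0.80 ± 0.21 and 0.85 ± 0.27. With the index as a covariate the calls for Cdh5 in both genotypes, Vwf in the knockout and Egfl7 were lost, and with library totals those for Lyve1 and Egfl7, where the endothelial list had 5 and 7 genes higher and none lower. Egfl7 was called under 13 of 20 alternatives. Without the 3 libraries that stand apart 4 endothelial markers rose and 2 fell in wild type and 5 rose and 1 fell in the knockout.

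The sum of 4 bile duct markers separated the diets with no overlap. It ran from 16.6 to 38.6 CPM in wild-type chow and 17 to 32.0 in knockout chow, against 71.8 to 130.3 in wild-type MCD and 74.8 to 117.8 in knockout MCD. Spp1 and Epcam carry most of this sum, with 6651 and 6400 counts over the 16 libraries, against 957 for Krt19 and 426 for Cftr. Epcam, an epithelial adhesion protein, rose by 1.35 ± 0.17 and 1.65 ± 0.17 and Spp1, osteopontin, by 3.84 ± 0.57 and 3.15 ± 0.55 on the log2 scale, under every alternative run. The 11 stellate cell and fibroblast markers summed to 284.3 to 502.7 CPM in wild-type chow and 452.4 to 1282 in wild-type MCD, which overlapped, and to 242.6 to 370.1 in knockout chow and 454.8 to 674.7 in knockout MCD, which did not. Of 10 tested, 3 rose in wild type and 4 in the knockout (7 of 11 without the 3 libraries that stand apart, and 6 and 10 of 10 with library totals), and none fell. Reln, an extracellular glycoprotein, and Rgs5, a pericyte regulator of G-protein signals, rose by 1.49 ± 0.29 and 1.65 ± 0.39 in wild type and 1.51 ± 0.29 and 2.26 ± 0.42 in the knockout. The 11 lymphocyte markers summed to 19.7 to 25.5 CPM in wild-type chow and 25.7 to 39.2 in wild-type MCD, without overlap, and to 17.7 to 28.9 in knockout chow and 23.9 to 37.9 in knockout MCD, with overlap. Cd4 carries most of this sum, with 3888 counts over the 16 libraries, against 490 for Gzma and 448 for Cd8a. In that list Cd4, which rat macrophages also carry, rose by 1.56 ± 0.37 and 1.25 ± 0.36, calls lost with the index as a covariate, and the protease Gzma fell by 1.93 ± 0.31 and 1.52 ± 0.29. Cd79b, of B cells, fell in wild type by 1.90 ± 0.56, a call lost without wild-type chow 1 or wild-type MCD 4 and with library totals. Klrd1, of NK cells, fell in the knockout by 1.31 ± 0.38, a call lost without knockout chow 4, with the knockout groups fitted alone, with library totals and with the index.

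Of 8 neutrophil markers 2 were tested, Mpo was at 0 in all libraries, and their sum was at most 9.24 CPM. S100a9 fell in the knockout by 1.94 ± 0.66, a call kept under 11 of 19 alternatives. Whether these shifts have a part in the changes of the members was not tested.

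Between the genotypes no member passed on either diet. On chow 0.00896% of all genes tested were called (1 gene, or 23 by DESeq2, with 1153 at an unadjusted p under 0.05) and on MCD 0% were (also 0 by DESeq2, with 81 at an unadjusted p under 0.05). Without the 3 libraries that stand apart the chow comparison called 516 genes, with 2635 at an unadjusted p under 0.05, and no member among the 516. By edgeR's test 1 member had an unadjusted p under 0.05 on chow and none on MCD, and no alternative run called a member. That member was Cxcl12: each knockout chow library lay above each wild-type chow library, a separation that 4.34% of the genes tested showed in either direction, and 1 member. Its log2 fold was 0.40 ± 0.19 on chow (edgeR adjusted p = 0.478), with an adjusted p from 0.132 to 0.766 over the alternatives, and 0.34 ± 0.19 on MCD (95% interval -0.06 to 0.73). For the other members the 95% intervals on chow were from -1.06 to 0.43 for Cxcl16, -1.08 to 0.09 for Vcam1, -0.92 to 0.68 for Il1b, -0.78 to 0.28 for Nfkbia, -0.20 to 0.87 for Icam1, -1.06 to 1.02 for Cxcl1 and -0.54 to 1.44 for Ccl2. These comparisons include the libraries labelled knockout chow 4 and knockout MCD 1, whose Tspo level goes against their label. Without those libraries no member was called either.

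The test of whether the diet effect differed between the genotypes called no member. It called 0% of the genes tested by edgeR (330 at an unadjusted p under 0.05, and 1 called by DESeq2). Without the 3 libraries that stand apart it called 20 genes, with 1956 at an unadjusted p under 0.05, and no member among the 20. In the fit of all libraries no member had an unadjusted p under 0.05. The smallest p among the members was 0.169, for Vcam1, where the knockout fold exceeded the wild-type fold by 0.54 ± 0.38 (95% interval -0.25 to 1.34). The difference for Cxcl12 was -0.07 ± 0.26, with an interval from -0.62 to 0.49, and that for Cxcl16 was 0.34 ± 0.47, from -0.65 to 1.33. So the call for Il1b in wild type and its absence in the knockout do not show a difference, whose value was 0.18 ± 0.54.

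Each tested member was set beside the rest of the transcriptome by its log2 CPM over the 16 libraries, which share the diet difference, so that high values can reflect it. How far they do was not tested. The nearest genes by Pearson's r were Igfals, Plbd1 and Med4 for Cxcl12 (0.98 each) and Gnai2, Anxa5 and Cyfip2 for Cxcl16 (0.97 each). For Vcam1 they were Atp7b (0.94), Pde3a (0.93) and Agap1 (0.93), and for Il1b Abcc8 (0.90), Nr1h4 (0.88) and Plekhd1 (0.87). Nfkbia lay nearest to Tlr5 (0.88), Cdc42ep2 (0.87) and Myo1g (0.85). Cxcl1 had Cdc25a (0.82), Slc25a24 (0.82) and Iqub (0.81), Icam1 had Rpia (0.81), Ovca2 (0.80) and Snrnp35 (0.77), and Ccl2 had Gimap4 (0.82), Eif4e3 (0.72) and Cyba (0.68). None of the nearest genes of a member was another member.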

How the data were processed

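Per the submitters' processing notes, reads were handled with Bowtie2 2.1.0 and RSEM 1.2.15 on rn6, and mRNA libraries were made with a stranded kit per the labels' protocols. How the counting used strand is not stated. The authors deposited RSEM expected counts per gene and a table of normalized signal, TMM-scaled CPM, which lay within 0.9865 to 1.014 times the CPM computed here for the members. Expected counts were rounded to whole numbers. They were filtered (filterByExpr), TMM-scaled and tested with edgeR 4.0.16 (R 4.3.3; glmQLFit robust, 1 term per group, 16 libraries, 12 residual degrees of freedom) over 11162 genes. DESeq2 1.42.0 and limma 3.58.1 (log2 of the deposited signal + 1) were alternatives, with other scalings, filters, a replicate block and left-out libraries. The code was tested on simulated data. Depth was 8745756 to 15762650 counts per library. The members and lists were chosen with earlier results of these data known. All members are named. From each list, the called genes with the smallest p in each diet contrast (up to 2 per direction) are named; receptors, integrins, interleukin-1 genes, Rela, Nfkb1, Nfkb2, Tnfrsf1a and Tnfrsf1b beyond these were named as known partners of members after their values were seen. Levels were not compared between genes, since lengths were not used.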

Additional observations from a re-analysis of the deposited data

Results flagged for a closer look

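Ccl2 in wild-type chow 3 was 1.73 CPM, where the other 3 wild-type chow libraries had 1.02 to 1.14 CPM. The gap to the nearest, over the group's whole range, was just past the critical value of Dixon's test for 4 libraries. The counts were 11 to 12 in all 4 libraries. Of 32 groups of member values checked, this was the only one that stood out, and chance gives about 1 in 20.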

How the results depend on the processing

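Of 848 values of single members under an alternative, 819 kept their direction or stayed uncalled, 17 lost a call, 12 gained one and none reversed a call. Cxcl12 and Cxcl16 were called under every alternative in both genotypes. The number of members called on MCD in wild type was 4, and leaving out single libraries gave 2 to 4; in the knockout it was 3, and 5 with library totals without TMM, an alternative chosen after seeing the data. That scaling called 6447 genes higher and 405 lower in the knockout (94.09% higher, against 54.21%) and 4806 and 508 in wild type (90.44% against 53.32%); with upper-quartile factors 62.72% of the knockout calls were higher. The replicate numbers did not pair the libraries (correlations of same-numbered deviations -0.316 to 0.511), and with a replicate block 3 members were called in wild type and 4 in the knockout. The genotype fit on chow called 1 gene, 516 without the 3 libraries that stand apart and 23 with DESeq2, no member among them. Depth limits Tnf, Ccl2 and Cxcl1. The fit of only the groups of a contrast was not run for the difference of the diet effects.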
